A study of Drosophila melanogaster with 2 samples.

Results

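The intronic peaks in long genes are the places recovered with CG10979 that fell inside a gene spanning 50 kb or more, outside its exons and away from any transcript start. They were found by chromatin immunoprecipitation followed by sequencing (ChIP-seq), in which DNA held by a protein is pulled down and read. A peak was a member when its summit, the base of highest signal, lay more than 500 bp from every annotated transcript start, in no annotated exon and inside a gene, and when the longest gene holding the summit spanned 50 kb or more. Of the 7630 peaks that the authors kept at their threshold of reproducibility between replicates (the IDR list, for irreproducible discovery rate), 967 met this rule, a share of 12.7% (95% Wilson interval 11.9% to 13.4%).

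The samples were whole Drosophila melanogaster embryos of both sexes together, 0 to 14 h of age, from a transgenic line that stably carried CG10979 with green fluorescent protein (eGFP) at its C terminus. Both libraries, biological replicates 2 and 3, had this same fusion and stage, and chromatin was recovered through the tag with an anti-GFP antibody. There was 1 group and no second genotype, treatment or stage, so the comparisons are between places in the genome and between the replicates, and no test between conditions exists. The labels do not give the promoter that drove the fusion, and whole embryos of this age range mix many cell types and stages, so that binding in few cells and weak binding in many cannot be told apart.

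Introns of long genes are known in flies as places where enhancers lie, the stretches that transcription factors bind to switch a gene on in particular cells. Genes with long introns include many that pattern the embryo or wire its nervous system. A peak in an intron marks DNA recovered with the tagged protein, and says neither that the protein touched the DNA itself nor which gene, the host or a neighbour, the site acts on.

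Most strong members had a summit rich in A and T. The windows below reach 50 bp to either side of the summit in 6 of the 11 strongest members, read from the RefSeq Release 6 genome, which is dm6, on the plus strand, and the capitals mark the longest unbroken run of A and T. They are shown because this base composition set summits apart from the sequence beside them. They lay at chr2L:481030-481130, chrX:3742171-3742271, chrX:7324968-7325068, chrX:1947707-1947807, chr3L:14304015-14304115 and chr3L:16480515-16480615, in the order printed.
ush: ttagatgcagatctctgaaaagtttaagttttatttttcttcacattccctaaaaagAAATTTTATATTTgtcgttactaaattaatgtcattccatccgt
Tlk: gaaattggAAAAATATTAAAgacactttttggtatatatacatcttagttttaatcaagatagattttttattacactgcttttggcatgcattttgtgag
lncRNA:CR44357: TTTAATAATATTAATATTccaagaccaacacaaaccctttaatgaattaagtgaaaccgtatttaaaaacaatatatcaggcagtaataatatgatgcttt
Hr4: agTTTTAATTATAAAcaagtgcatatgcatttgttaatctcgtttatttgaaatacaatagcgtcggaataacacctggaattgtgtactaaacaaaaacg
fz: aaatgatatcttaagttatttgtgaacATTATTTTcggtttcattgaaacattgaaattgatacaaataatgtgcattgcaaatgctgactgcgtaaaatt
CG33158: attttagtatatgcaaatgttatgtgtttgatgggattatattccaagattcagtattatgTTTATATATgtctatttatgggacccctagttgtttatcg

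A smaller set of members was richer in G and C and gave more signal in replicate 3 than in replicate 2. The windows that follow are 5 of these, with capitals on any copy of AGATGG or, as the other word, AGGTGG, on either strand. Both words lie within longer sequences known for the insulator protein CTCF, a zinc finger protein that helps to fold chromosomes. They were added after the values were seen, and Cph and Lmpt also are the members of rank 3 and 9 by signal. Lmpt was the least rich in G and C of the 5, at 39.6%, against 40.6% in windows centred 300 bp to either side. The windows lay at chrX:7162642-7162742, chr3L:16884250-16884350, chr3R:23657916-23658016, chr2L:10108904-10109004 and chr3L:18019772-18019872, in the order printed, and are again given on the plus strand.
Cph: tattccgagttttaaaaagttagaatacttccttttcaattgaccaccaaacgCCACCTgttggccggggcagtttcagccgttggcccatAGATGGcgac
Lmpt: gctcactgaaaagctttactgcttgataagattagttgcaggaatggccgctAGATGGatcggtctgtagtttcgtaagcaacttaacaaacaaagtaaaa
CG31145: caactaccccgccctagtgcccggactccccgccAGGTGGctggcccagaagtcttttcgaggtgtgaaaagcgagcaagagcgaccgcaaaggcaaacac
CG44153: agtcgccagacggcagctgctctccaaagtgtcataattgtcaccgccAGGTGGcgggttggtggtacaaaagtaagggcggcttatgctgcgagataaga
Eip75B: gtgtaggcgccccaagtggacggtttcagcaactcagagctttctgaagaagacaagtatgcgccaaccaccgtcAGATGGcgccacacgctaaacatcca

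The last window shown is of a member that was also higher in replicate 3 and holds neither word. It lay at chrX:1968266-1968366 in the nuclear receptor gene Hr4, about 24.8% of it was G or C, and the palindrome TACGTA recurs along it.
Hr4 second site: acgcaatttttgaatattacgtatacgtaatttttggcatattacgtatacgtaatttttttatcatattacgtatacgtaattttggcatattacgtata

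Long genes were not evenly occupied. Of 319 genes spanning 50 kb or more, 180 held at least 1 member, 56.4% (95% Wilson interval 50.9% to 61.8%), and 139 held none. In each replicate's own 7630 strongest peaks, 186 genes held such a peak in replicate 2 and 179 in replicate 3, with 177 in both. The occupied genes ranged from 31 that held a single member to 28 that held more than 10. The 38 genes with most members held 50.5% of the members in 14.5% of the intronic sequence in which the rule allows a summit.

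Genes without a member mostly lacked even weak peaks. The authors' relaxed list for the pooled replicates holds 30000 peaks, and 118 of the 139 genes had none of them in their allowed sequence. For 13 of these the rule left no sequence, because a longer gene covered it or because it lay near starts or in exons. The other 105 genes held 11.2 Mb of the 25.5 Mb of allowed sequence. At the far end, 121 genes held more than 10 relaxed pooled peaks and 118 of those held a member. Occupied and empty genes had similar median amounts of allowed sequence, 59.8 and 55.2 kb, and similar median GC content in it, 40.2% and 39.9%. The genes with most allowed sequence were nevertheless empty. Myo81F had 1953.6 kb, Pzl 701.8 kb and lovit 429.4 kb, all above the 333.2 kb of kirre, the most in an occupied gene. In Myo81F, Pzl and lovit 40.9%, 35.2% and 46.9% of it was soft-masked, but the occupied gene RhoU reached 47.8%. Soft-masked shares and positions along the arms were not compared between the sets.

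A peak at the start of the gene went with members in its introns. An IDR peak at 1 of its own starts was present in 94 of the 180 occupied genes (52.2%) and in 17 of the 139 others (12.2%). Genes that share sequence with a neighbour can share its peaks.

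The gene that held most members was kirre, which encodes an adhesion protein of the immunoglobulin family that lets muscle founder cells attract their fusion partners. It held 32 members in the IDR list, 35 in replicate 2's own list and 30 in replicate 3's. The 32 spread from 17.2 to 358.0 kb from its 5′ end, and none of them was in a first intron. First introns made up only 27877 bp of its 333203 bp of allowed sequence. The signal values of its members, a score of the authors' caller that ranks peaks within 1 list, ran from 196.7 through a median of 395.1 to 2432. The replicates thus held similar numbers in kirre.

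The noncoding gene lncRNA:CR44357 came next with 28 members (29 and 24 in the lists of replicates 2 and 3). As 23 of them also lay inside another gene, and lncRNA:CR44357 was credited only as the longest, the host of these sites is a matter of the rule. Ten-a, a teneurin that matches synaptic partners, held 17 members (17 and 16). The homeodomain gene hth, whose product carries Extradenticle into the nucleus, also held 17 (17 and 16), none of which lay in another gene. None of these 4 genes differed by more than 5 members between the replicates' lists.

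Further genes held 14 to 16 members each. fz, the receptor that sets planar polarity, held 16 members (15 and 16), and fz2, the receptor of Wingless, held 14 (14 and 13). ush encodes a zinc finger cofactor of GATA factors and held 14 (14 and 13). cv-c held 14 (15 and 14). CG43658 and lncRNA:CR32773 held 16 each. Together the 10 genes with most members held 184, or 19.0% of all.

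**Figure D1:**
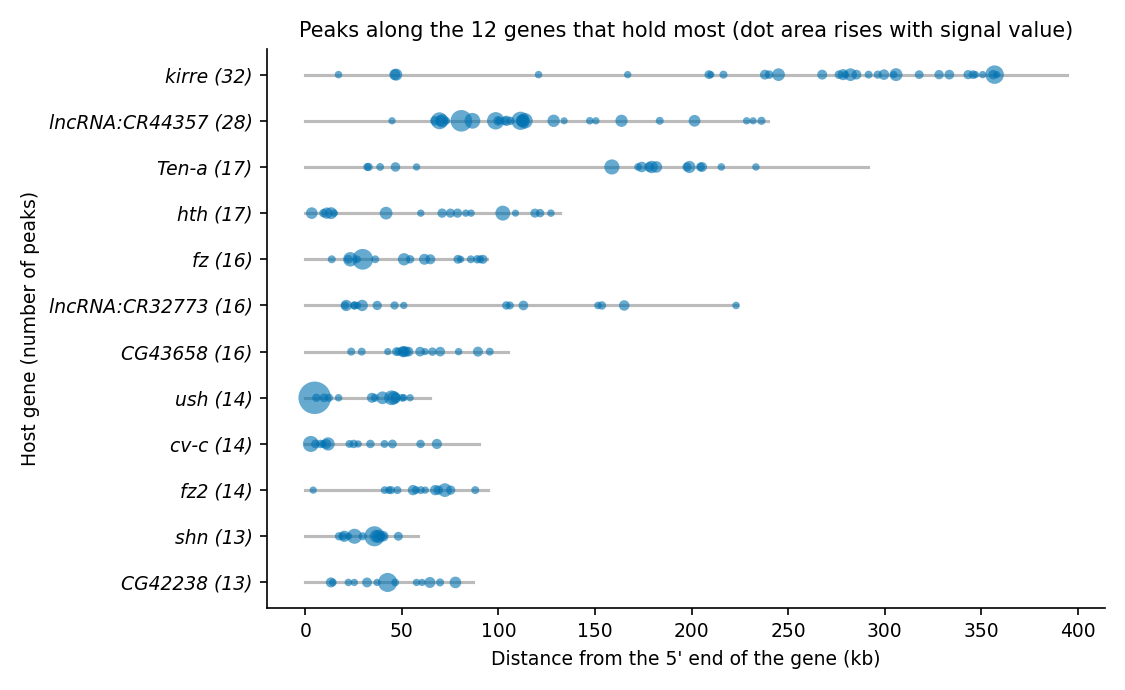
Members along the 12 genes that hold most, drawn as distance in kb from the 5′ end of the gene, with grey lines for the gene spans, dots for members and a dot area that rises with the pooled signal value. kirre, at the top, holds 32 members up to 358.0 kb from its 5′ end, and the largest dot is the member 4.86 kb into ush.

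By density the order changed. shn, a zinc finger protein that acts downstream of the growth factor Dpp, held 13 members in 43.0 kb of allowed sequence, or 30.3 per 100 kb, the most of any long gene. ush followed with 28.0 per 100 kb, then cic at 23.8 and px at 22.7, Tlk, a kinase of chromatin assembly, 22.6, and sbb, a nuclear corepressor, 21.4. kirre held only 9.60 per 100 kb, because its allowed sequence came to 333.2 kb. Across the occupied genes the median was 6.93 per 100 kb.

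Genes of 7 lists were then compared by how many of their long members were occupied, beside 180 of 319 over all long genes. The lists were chosen with earlier results of these data known, so that counts are given as a description, without a test. Of the 29 long genes listed as developmental transcription factors, 25 were occupied (86.2%, 95% Wilson interval 69.4% to 94.5%). The list held 9.83 members per 100 kb against 3.79 over all long genes. Replicate 2's own list gave 10.1 and replicate 3's 9.32, so that the distance from all long genes (3.94 and 3.59) exceeded the difference between replicates. Besides hth, ush and shn the list's fullest gene was Eip75B, a nuclear receptor of the ecdysone response, with 12 members. The list's values also include Eip63E, which encodes a cyclin-dependent kinase and no transcription factor, with 5 members in 83.5 kb. The T-box gene bi and the zinc finger gene br held none because the rule left them no sequence, their introns being credited to the longer lncRNA:CR32773 and Mur2B. chinmo and fru, 2 more zinc finger genes, held none in 39.9 and 108.1 kb of allowed sequence.

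Signalling genes followed, with 9 of 10 occupied and 8.17 members per 100 kb. cv-c held 14, mam, the Notch coactivator, 10, spri, a Ras effector, 8, and tkv, a receptor of Dpp, 7. The MAP kinase gene rl held none in 46.4 kb of allowed sequence, of which 52.1% was soft-masked. Of 9 long genes for epithelial adhesion and matrix, 7 were occupied at 6.65 per 100 kb. pyd, a junction scaffold, held 8, the proteoglycan gene dally 6, the apical polarity gene sdt 5 and the protocadherin gene ds 4, whereas Cad87A and the laminin gene wb held none.

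Axon guidance and cell recognition genes lay near the value for all long genes. Of 33, 20 were occupied, at 4.54 per 100 kb, and the 4 fullest were kirre, Ten-a, fz and fz2. The cadherin gene CadN2 and the receptor phosphatase gene Lar held none in 75.9 and 129.7 kb. Among long genes for the cytoskeleton 4 of 8 were occupied, at 3.57 per 100 kb, with 5 members in shot, a linker of actin and microtubules, 2 in Zasp52 and 1 in the nesprin gene Msp300. Ank2 and the titin-like gene bt held none, Ank2 with no allowed sequence.

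RNA-binding regulators were often occupied but thinly. Members lay in 10 of their 14 long genes at 2.45 per 100 kb, with 11 in the translational repressor gene pum, 7 in the splicing regulator gene Rbfox1, 5 in shep and 4 in heph. Syp and bru1 held none, bru1 in 122.9 kb of allowed sequence.

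Ion channels and neurotransmitter receptors held the fewest. Of 16 long genes, 2 were occupied (12.5%, 95% Wilson interval 3.50% to 36.0%), the potassium channel gene SK with 2 members and the calcium channel gene Ca-alpha1T with 1. The density was 0.326 per 100 kb, with 0.434 in replicate 2's own list and 0.326 in replicate 3's. Relaxed pooled peaks were few there too, 1.41 per 100 kb against 14.7 over all long genes and 40.04 in the transcription factor list. The serotonin receptor genes 5-HT1A and 5-HT2B held none in 47.5 and 44.3 kb. Counting only long genes with a relaxed pooled peak, 3 ion channel and receptor genes held 1.31 members per 100 kb. The 26 of the transcription factor list held 10.5 and all such long genes 6.79. Signalling genes held 8.77 on this count, epithelial adhesion and matrix genes 6.65, and axon guidance and cell recognition genes 6.02. Cytoskeleton genes held 3.89 and RNA-binding regulators 3.43. The adhesion and axon guidance lists, above all long genes before, thus lay below them on this count. None of the 16 ion channel and receptor genes had an IDR peak at its own start. Of all 319 long genes 111 had one, as had 18 of the 29 in the transcription factor list.

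**Figure D2:**
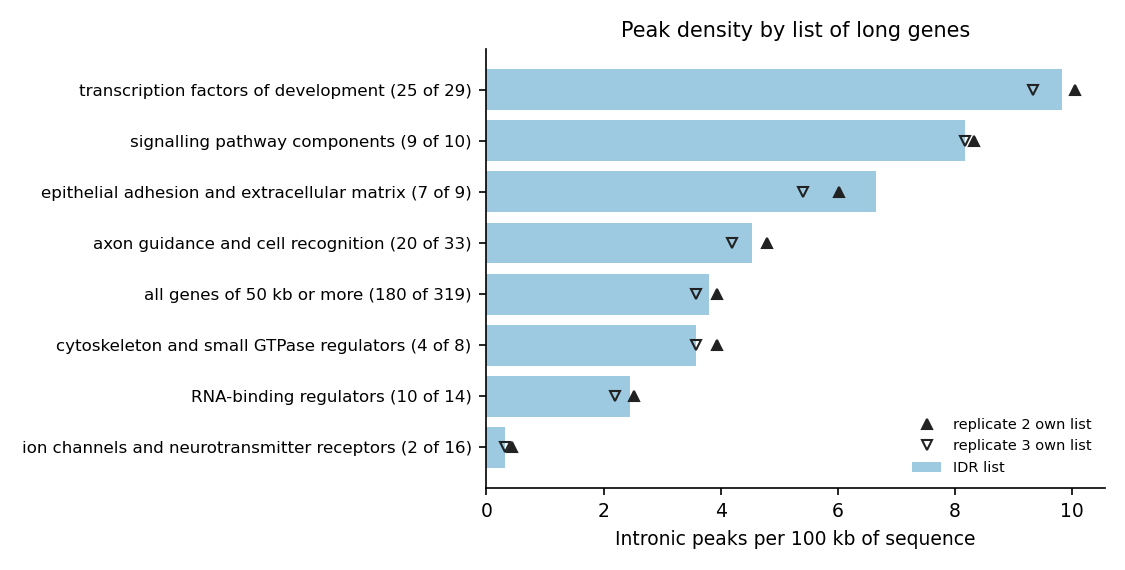
Members per 100 kb of allowed intronic sequence in each list of genes of 50 kb or more, with bars for the IDR list, triangles for each replicate's own 7630 strongest peaks, and occupied and long genes in parentheses. The transcription factor list stands at 9.83 per 100 kb, all long genes at 3.79 and ion channels and receptors at 0.326.

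Over all long genes the density of 3.79 members per 100 kb (3.76 ± 0.250, mean and SD of the replicates' own lists, n = 2) stood below 6.96 in the introns of shorter genes, where the replicates' lists gave 7.06 and 6.81. It was also below the 16.9 per 100 kb within 500 bp of starts, and above the 2.30 of intergenic sequence more than 5 kb from a gene. The gap to shorter genes exceeded the difference between replicates. Leaving out genes without any relaxed pooled peak, an alternative chosen after seeing the data that selects genes by their peaks, raised the densities to 6.79 in long genes and 11.4 in shorter ones, with 44.1% and 39.2% of the sequence left out. Of the 3752 relaxed pooled peaks in these introns, 967 were in the IDR list (25.8%, 95% Wilson interval 24.4% to 27.2%), with a background of 25.4% over all 30000 pooled peaks. The share was 23.7% in shorter introns, 29.1% at starts, 29.2% and 31.0% in intergenic sequence within 5 kb of genes and farther away, and 8.14% in exons.

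Members thinned out with distance from transcript starts. Between 0.5 and 1 kb from the nearest start, of any gene, the density was 9.05 per 100 kb, and it fell in each further step to 6.57, 5.72, 4.38 and 3.61 and, beyond 20 kb, to 1.31. Shorter genes went from 11.1 to 2.09 over the same steps and lay above long genes in each of them. Of the allowed sequence of long genes, 31.7% lay beyond 20 kb, against 2.10% in shorter genes. The share of relaxed pooled peaks that were called stayed between 24.4% and 30% at every distance in long genes, so that the relaxed peaks thinned out in the same way, from 30.2 to 4.62 per 100 kb. Without the genes that lack a relaxed pooled peak the fall was shallower, from 12.3 to 4.84 in long genes and from 19.5 to 7.77 in shorter ones.

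**Figure D3:**
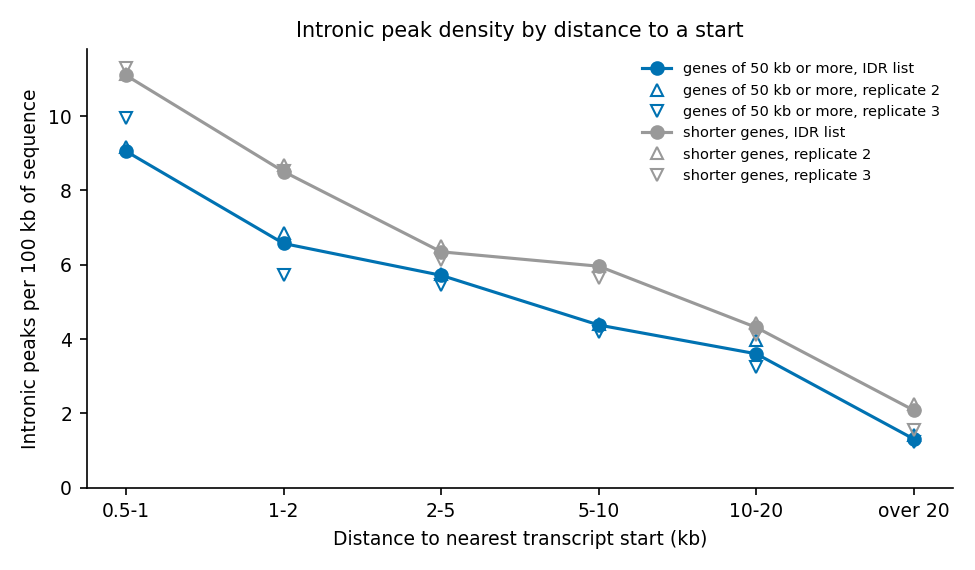
Intronic IDR peaks per 100 kb of allowed sequence, by distance in kb to the nearest transcript start, in genes of 50 kb or more (blue) and in shorter genes (grey), with open triangles for each replicate's own list. Both lines fall with distance, from 9.05 to 1.31 in long genes.

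The median member lay 5.48 kb from the nearest start (interquartile range 2.39 to 11.8 kb), and the most distant, in the zinc finger gene luna, 56.6 kb away. First introns held 463 members, 47.9% (95% Wilson interval 44.7% to 51.03%), in 32.4% of the allowed sequence, which makes 5.60 per 100 kb there and 2.93 in later introns. First introns made up 40.4% of the sequence once genes without a relaxed pooled peak were left out. Replicate 2's own list had 47.2% in first introns and replicate 3's 48.5%. In the first 50% of the gene span, counted from the 5′ end, lay 60.1% of the members. Inside the span of a further gene lay 99 members, or 10.2%.

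Members came in runs. Another member lay within 5 kb of 609 of them (63.0%) and within 1 kb of 165 (17.1%). For 53 the next lay within 400 bp. No share for other peaks is set beside these shares, so the runs are not shown to be particular to members. Each summit was counted as a member of its own, so runs and counts per gene are of summits and not of separate sites. Joining members less than 5 kb apart left 568 groups, of which 358 were single members and 25 held 5 members or more. The largest held 9 members, 1 in sbb over 14.0 kb and 1 in ush over 19.8 kb, and Tlk had 8 members within 11.4 kb. Groups of 7 lay in rdx, CG43658, rols and CG33158.

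The order of the arms by density changed when genes without a relaxed pooled peak were left out, an alternative that selects genes by their peaks. Arm 2L held 4.92 members per 100 kb and X 4.74, against 3.58 on 3L, 3.39 on 2R and 2.84 on 3R. The X carried 28.0% of the members and 17.4% of the other IDR peaks, and 22.4% of the allowed sequence of long genes. On 3R, Myo81F and Pzl alone made up 2.66 Mb of allowed sequence without a relaxed pooled peak, and the arm held 4.67 per 100 kb without them. Without all genes that lack a relaxed pooled peak, which took 57.3% of the sequence on 3R, 54.1% on 2R and 25.2% on X, the arms stood at 7.39 on 2R, 7.10 on 2L, 6.91 on 3L, 6.66 on 3R and 6.34 on X, so that X went from near the top of the order to the bottom. The allowed sequence on chromosome 4 came to only 22.8 kb and held no member.

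In median strength the members resembled the whole list. Their median pooled signal value was 377.4 (interquartile range 261.6 to 648.9), against 373.3 for all IDR peaks and 390.6 in shorter introns. Among the 1907 strongest IDR peaks 221 were members, which is 22.9% of members where 24.99% of all IDR peaks lie. At the very top they were fewer, with 5 of the 100 strongest IDR peaks beside 12.7% of the whole list. Their median width was 312 bp, close to the 317 to 336 bp of the other intronic and intergenic peaks and below the 411 bp of those at starts.

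The strongest member lay 1.39 kb from a start of ush. Its summit was at chr2L:481080, its pooled signal value was 7905, and it stood at 4552 in replicate 2 and 3322 in replicate 3, the second and seventh highest peaks of those lists. Tlk followed at 4380 (2544 in replicate 2 and 1845 in replicate 3). The pooled values come from a list of their own, and their size is not comparable with that in a replicate's list. Cph, a zinc finger transcription factor gene, came next at 4282, but with 1628 in replicate 2 and 2643 in replicate 3. The log2 ratios of replicate 2 to replicate 3 in ush and Tlk, 0.45 and 0.46, lie within the shift between the lists that most members share, whereas that of Cph, -0.70, has the other sign.

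Further strong members lay in sbb (3620), lncRNA:CR44357 (3375), tun (3183), Hr4 (3137), fz (3102), the LIM domain gene Lmpt (2982), shn (2901), CG33158 (2753), a second site in sbb (2691), CG42238 (2600), ttv, which makes heparan sulfate (2467), and kirre (2432). At the other end the weakest members, in sano and sima, stood at 190.0 and 190.2, and the strongest pooled peaks in long introns that missed the IDR list, in osp and sick, at 189.8. The genes nearest to the length limit were Sytbeta (50283 bp, no member) and ab (50403 bp, 4 members) inside it, and outside it Octalpha2R (49945 bp, no intronic peak) and NetA (49917 bp, 6 intronic peaks).

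Summits were poor in G and C. Windows reaching 50 bp to either side of a member's summit were 30.3% ± 8.28 GC (SD over 967 peaks), against a mean of 45.02% in windows centred 300 bp to either side, and 88.7% of the members were lower at the summit. The difference was -14.7 percentage points, with -15.1 and -13.7 in the replicates' own lists. Relaxed pooled peaks in the same introns that missed the IDR list differed by only -3.01 points, from 42.1% to 39.1%. Shorter introns gave -13.7, so that the dip was not confined to long genes, and the windows of ush, Tlk and fz printed above are examples of it at 26.7%, 25.7% and 26.7% GC.

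Set against all 249332 windows of that size that tile the allowed introns, with a mean of 40.2% GC, members gathered at the low end. They took 18.7 of each 1000 windows below 20% GC and 21.8 between 20 and 25%, then 11.6, 5.28, 2.19, 1.08 and 0.762 in steps of 5 points, and 0.848 above 50%. Pooled peaks without an IDR call varied less, from 9.60 to 16.2 per 1000 windows. Sequencing and peak calling can themselves depend on GC, and their part in this was not tested.

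**Figure D4:**
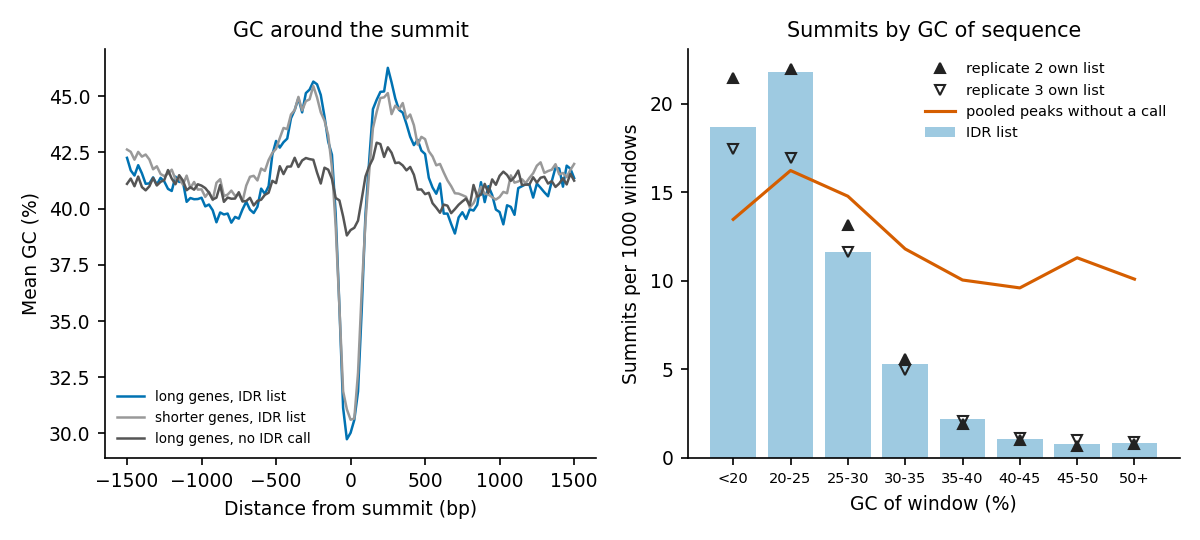
Left, mean GC in percent by distance in bp from the summit, for members (blue), IDR peaks in shorter introns (light grey) and pooled peaks in long introns without an IDR call (dark grey). Right, summits per 1000 windows by GC of the window, with bars for the IDR list, triangles for each replicate's own list and a line for pooled peaks without a call, where members fall from 21.8 to below 1 as GC rises.

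The words most raised at summits followed this composition. Each 6-base word was looked for in either strand of each window. AAATAT was present in 38.7% of member windows and 12.1% of flanks, the widest gap, but allowed windows of the same GC held it in 35.7%. The next 4 by difference, AAAATA at 41.3%, TTAAAA at 36.6%, ATTTTA at 34.4% and TAAATA at 32.6%, stood likewise within 1.06 times of windows of the same GC. The TATA box letters TATAAA were found in 27.2% of members, 8.69% of flanks and 25.3% of windows of the same GC. The longest run of A and T had a median of 11 bp in member windows, 7 in flanks and 8 in all windows. Those marked in the first windows printed above went from 8 bp in fz to 18 in lncRNA:CR44357. Runs of A and T of 20 bp or more lay in 7.24% of member windows, 2.22% of flanks and 2.77% of all windows. IDR peaks in shorter introns had them in 6.31%, and the runs were not set beside windows of the same GC.

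Of 37 listed motifs, 20 had a higher share at summits than beside them, and 13 of these also exceeded windows of the same GC. The highest ratio to windows of the same GC belonged to AGATGGC, a core of the CTCF sequence, which was in 19 members (1.96%, 95% Wilson interval 1.26% to 3.05%) and in 0.581% of such windows, a ratio of 3.38. The share of all allowed windows that held it was 1.14%. The flanks held it in 1.29%. The M1BP word GGTCACA was in 11 members (1.14%), against 0.672% of flanks, and stood at 2.52 times windows of the same GC. GGCGCC, in 12 members, and the E-box CACCTG, in 27, stood at 3.15 and 1.92 times windows of the same GC, but were rarer at summits than in the richer flanks (1.24% against 1.65% and 2.79% against 3.36%). Each count is small, the letters are a description, and a match does not show that a factor was bound.

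The replicates ranked members alike, with a Spearman correlation of 0.90 between their signals. Part of this is built in, as the IDR list keeps peaks that were reproducible between these same replicates. Both replicates had a summit within 100 bp for 941 of the 967, replicate 2 for 959 and replicate 3 for 949, and no member lacked a match in both. Over the 941, the log2 ratio of replicate 2 to replicate 3 signal had a median of 0.31 (interquartile range 0.11 to 0.46), a difference in scale between the lists that all IDR peaks shared at 0.28. Signal was higher in replicate 3 for 156 members (16.6%), against 18.7% in shorter introns, 18.9% and 14.8% in intergenic sequence near genes and farther away, and 28.4% at starts. Higher, here and below, refers to the values as deposited, without correction for that difference in scale.

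The ratio went with GC content. It was 0.31 below 20% GC, where none of 59 members was higher in replicate 3, stayed between 0.31 and 0.34 up to 40%, and then dropped to 0.20 at 40 to 45%, to -0.08 at 45 to 50% and to -0.31 above 50%, where 23 of 29 were higher in replicate 3. Put together, 99 of 830 members below 40% GC (11.9%) and 40 of 60 at 45% or more (66.7%) were higher in replicate 3. IDR peaks outside long introns showed 16.4% and 58.4%. Summits close to another member were counted separately in these shares. Since each replicate is 1 library, a difference between the replicates has no replicate of its own.

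AGATGG was in 3.41% of member windows, 4.55% of flanks and 2.45% of windows of the same GC. For AGGTGG the shares were 3.00%, 4.81% and 1.68%, so both words were rarer at summits than beside them. Members with AGATGG or the word AGGTGG were divided. Among the 57 members that held either word and were matched in both replicates, 28 were higher in replicate 3. The 29 below 40% GC had a median log2 ratio of 0.32, like the other members, and 7 of them were higher in replicate 3. The 28 at 40% GC or more had a median of -0.27, and 21 were higher in replicate 3 (75%). At 40% GC or more without either word the median was 0.10, and 36 of 83 were higher in replicate 3 (43.4%). Holders of either word at 40% GC or more also had a higher mean GC, 50.4% against 45.9% without either. As the ratio fell with GC over this range, the word and GC cannot be told apart here. The difference between the sets was not tested.

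The strong members higher in replicate 3 were few. Of the 242 strongest members 18 were higher there, and 9 had a log2 ratio below -0.6, of which 7 held a CTCF-type word. These words were chosen after the values were seen, so this count is a description only. In Cph the ratio was -0.70 at 47.5% GC, in Lmpt -0.70 with 1137 in replicate 2 and 1853 in replicate 3, and in ttv -0.72 with 928.2 and 1532. tun stood at -0.69 with 1218 and 1959. CG31145 followed at -0.63 and 61.4% GC, and CG44153 at -0.87 and 54.5% GC, the latter with 232.4 in replicate 2 and 425.7 in replicate 3. The second site in Hr4 reached -0.91 at 24.8% GC without either word. In Eip75B, with AGATGG followed by C, the values were 961.5 and 1029. Its log2 ratio was -0.10, where the median over matched members was 0.31. GC at the summit was above that of the flanks in 6 of these 8 members, as in CG31145 with 34.7% beside it, the reverse of ush and Tlk.

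**Figure D5:**
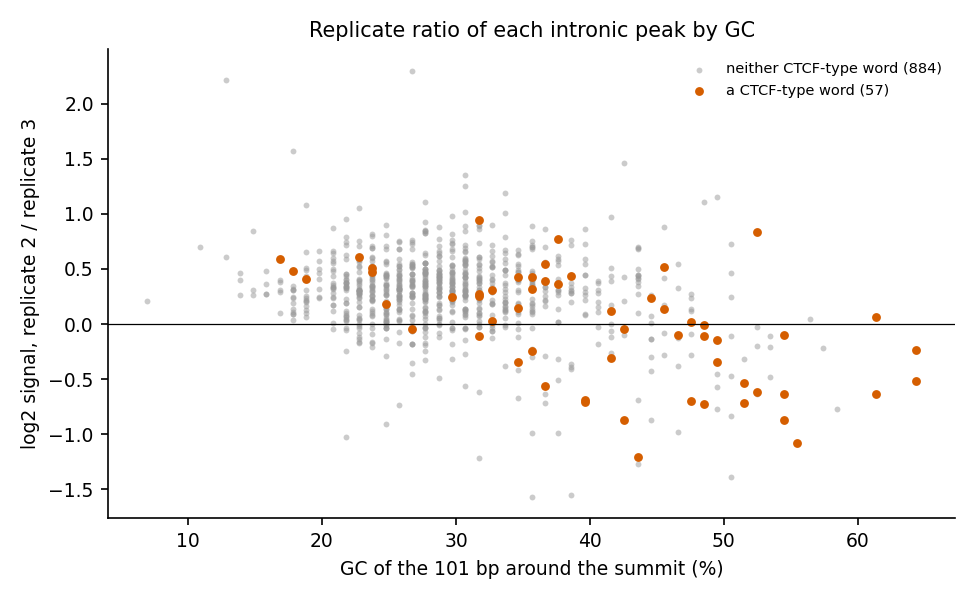
The log2 ratio of replicate 2 to replicate 3 signal for the 941 members matched in both, by GC in percent within 50 bp of the summit, with the 57 that hold AGATGG or its AGGTGG variant in orange and the other 884 in grey. Most points lie above 0 at low GC, and 40 of 60 at 45% GC or more lie below it.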

How the data were processed

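ChIP-seq peaks of 2 biological replicates, numbered 2 and 3, were analysed as 1 group. The authors deposited narrowPeak lists on dm6. Per the labels and accompanying notes, each replicate alone and both pooled were called against a shared control alignment, and from these calls came the IDR list. Neither aligner nor peak caller is named: they are not given in the sources used. The signal value of a peak is the score of the authors' caller and has no fixed range. The −log10 q value the authors deposited reads 4.27 in every IDR peak, a cap, and served for nothing here. The IDR list holds the pooled peaks of highest signal, down to 189.9. The lists used hold peaks and not counts, so depth is unknown, and a Wilson interval reflects how many peaks or genes were counted and nothing else.

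Genes came from Ensembl release 115 without transposable elements, and sequence from the RefSeq Release 6 genome. Allowed sequence is every base at which the rule accepts a summit. A base was credited to the longest gene that covers it. For a value per replicate, that replicate's own 7630 strongest peaks were taken. Replicate signals were matched by the nearest summit within 100 bp. Shares in windows of the same GC weight all windows by the members' GC. Named genes were the hosts of the 15 strongest members, the 10 hosts with most members, and in each list up to 4 hosts and 2 empty genes, of which 1 is not reported here. The sequences of CG31145, CG44153, Eip75B and the second site in Hr4, the genes at high density, the largest groups and the words AGATGG and AGGTGG were chosen after their values were seen. The members, lists and motifs were chosen with earlier results of these data known. The location, matching and word counts were tested on simulated data. Versions were numpy 2.4.6 and pandas 2.3.3 under Python 3.11.15, scipy 1.17.1 for intervals, and matplotlib 3.10.9 for figures.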

Additional observations from a re-analysis of the deposited data

How the results depend on the processing

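Of 83 comparisons with an alternative, 49 stayed within the spread between replicates or within 1.5 times the count and 34 moved. With only the 3815 strongest IDR peaks, members numbered 488, 13.0% of the pooled peaks in place were called, the density was 1.91 per 100 kb, 48.8% lay in first introns, 20.9% were in the top set by signal, 45.9% had another member within 5 kb, and the GC difference was -16.0 points. With a gene length limit of 25 kb there were 1719 members (22.5% of the list) in 431 genes at 4.52 per 100 kb, 25.2% called and 55.8% in first introns; with 100 kb there were 355 (4.65%) in 52 genes at 2.64 per 100 kb, 26.5% called, 42.8% in first introns and 60.0% within 5 kb of another. A start window of 200 bp gave 13.6% of the list, 26.4% called, 24.9% in the top set and 65.0% within 5 kb; 1000 bp gave 11.6% and 25.4% called. Windows reaching 100 bp to either side made the GC difference -12 points, and 17.1% and 80.2% had another member within 1 and 10 kb. Leaving out a replicate gave 25.57% to 25.59% called, 22.1% to 24.8% in the top set, and 61.2% to 62.8% with another member within 5 kb. Leaving out long genes whose sequence is over 50% soft-masked, chosen after seeing the data, kept all 967 members at 3.82 per 100 kb. It took out only 3 genes with 0.19 Mb and no relaxed pooled peak, so it could not change the members. Coding hosts alone gave 938 members in 178 genes. Leaving out genes without a relaxed pooled peak, also chosen after seeing the data, gave 6.79 members per 100 kb. The share called stood above the 25.4% background in the reported setting and below it with the 25 kb limit. List, distance, arm and motif values had no alternative other than those printed beside them. No paired analysis was possible because there is 1 group.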
